A study of Mus musculus with 6 samples.

Results

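Genes of mitosis and chromosome segregation were followed in mouse embryonic stem cells, pluripotent cells of the early embryo, with and without a full set of linker histones. The members were 40 genes chosen by name for their roles in mitotic entry, the spindle, the spindle checkpoint, sister chromatid separation and cytokinesis. They were chosen with earlier results of these data known. Of these, 35 had a probe set listed on the array (48 probe sets in all, among 8251 named genes), and Bub1b, Ccnb1, Cdc25b, Cenpf and Espl1 had none listed. The wild-type cells are compared with 2 lines null for H1c, H1d and H1e (now H1f2, H1f3 and H1f4), which are called null line 1 and null line 2 after the numbers in their labels. Each of the 3 lines was measured on 2 arrays, numbered by experiment, with total RNA from cells in exponential growth. The strain, the passage and whether the null lines are separate clones are not stated in the labels. Separate cultures are not stated for the arrays of a line either, so each p-value here reflects array-to-array spread that could be technical.

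Linker histones sit on the outside of the nucleosome and help to fold chromatin. A dividing cell enters mitosis when cyclin B activates the kinase Cdk1, separates its sister chromatids when the anaphase-promoting complex has securin and cyclin B destroyed, and then splits by cytokinesis. Transcripts of most of these genes accumulate late in the cell cycle, in G2 and mitosis. Embryonic stem cells divide quickly, with short gap phases. Many late cell cycle promoters carry a cell cycle genes homology region (CHR), which the MuvB complexes bind, together with CCAAT boxes, which are bound by NF-Y.

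The promoters of 6 members are printed. Pttg1, Top2a, Aurka and Kif11 had the smallest p-values in the null average among members with 1 promoter window, though none passed after adjustment. Cdk1 and Ccnb2 are the kinase and a cyclin at the core of mitotic entry. Each window runs from 250 bases before to 50 bases after the start of the gene in RefSeq (build GRCm38.p6), written 5′ to 3′ along the gene. Capitals mark the CHR, searched as TTTGAA on both strands and as the palindrome form TTTAAA, and the CCAAT box, searched as CCAAT on both strands. On the opposite strand the first reads TTCAAA in the line printed and the box reads ATTGG there. In the 6 windows printed no CHR match overlaps a CCAAT box. The windows are chr11:43425932-43426231 (minus strand) for Pttg1, chr11:99024140-99024439 (minus strand) for Top2a, chr2:172370521-172370820 (minus strand) for Aurka, chr19:37376132-37376431 (plus strand) for Kif11, chr10:69352863-69353162 (minus strand) for Cdk1 and chr9:70421505-70421804 (minus strand) for Ccnb2.
Pttg1: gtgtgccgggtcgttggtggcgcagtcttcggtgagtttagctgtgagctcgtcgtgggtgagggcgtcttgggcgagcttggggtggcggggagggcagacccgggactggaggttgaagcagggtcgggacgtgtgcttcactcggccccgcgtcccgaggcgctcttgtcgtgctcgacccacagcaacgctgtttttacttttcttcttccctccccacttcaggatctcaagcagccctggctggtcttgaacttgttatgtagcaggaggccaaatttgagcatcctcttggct
Top2a: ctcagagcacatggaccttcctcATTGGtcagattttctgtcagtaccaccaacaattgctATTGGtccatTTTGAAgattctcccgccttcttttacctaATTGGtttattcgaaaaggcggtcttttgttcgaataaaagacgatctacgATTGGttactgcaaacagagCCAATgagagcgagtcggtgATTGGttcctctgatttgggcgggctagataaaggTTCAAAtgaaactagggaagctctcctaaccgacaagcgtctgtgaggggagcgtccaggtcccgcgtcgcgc
Aurka: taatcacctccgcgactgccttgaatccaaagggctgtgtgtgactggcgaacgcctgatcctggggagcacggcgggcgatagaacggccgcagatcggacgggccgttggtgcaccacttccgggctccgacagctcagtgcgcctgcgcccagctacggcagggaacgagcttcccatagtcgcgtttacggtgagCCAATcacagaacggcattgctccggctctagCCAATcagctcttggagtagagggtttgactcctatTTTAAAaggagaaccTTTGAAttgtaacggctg
Kif11: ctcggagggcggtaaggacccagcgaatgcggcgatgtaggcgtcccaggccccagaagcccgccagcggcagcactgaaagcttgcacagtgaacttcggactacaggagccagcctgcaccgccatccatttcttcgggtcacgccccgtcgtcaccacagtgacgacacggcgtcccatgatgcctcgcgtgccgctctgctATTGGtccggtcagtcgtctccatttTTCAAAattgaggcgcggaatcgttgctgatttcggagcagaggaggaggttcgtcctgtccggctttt
Cdk1: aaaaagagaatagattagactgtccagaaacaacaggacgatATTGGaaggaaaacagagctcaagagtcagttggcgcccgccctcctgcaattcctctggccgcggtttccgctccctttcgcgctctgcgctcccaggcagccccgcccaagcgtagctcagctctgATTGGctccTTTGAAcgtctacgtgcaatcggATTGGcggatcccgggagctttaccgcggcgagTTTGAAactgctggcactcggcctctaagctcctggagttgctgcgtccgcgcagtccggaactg
Ccnb2: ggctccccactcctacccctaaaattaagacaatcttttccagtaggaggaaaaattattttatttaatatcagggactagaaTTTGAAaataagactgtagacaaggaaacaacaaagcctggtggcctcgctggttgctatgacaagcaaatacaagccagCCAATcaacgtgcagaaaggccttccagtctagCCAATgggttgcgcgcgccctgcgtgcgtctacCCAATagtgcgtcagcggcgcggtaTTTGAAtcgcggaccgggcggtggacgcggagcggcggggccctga

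The Ccnb2 window held 2 CHR matches and 3 CCAAT boxes, and the Cdk1 window the same numbers. Top2a had 2 CHR matches and 6 CCAAT boxes, Aurka 2 of each and Kif11 1 of each. No match was found in the Pttg1 window, which says only that these letters are not in it. Among the 34 members tested, 27 had a window (29 windows, since Bub3 and Prc1 had 2 each). The others were Smc4, Incenp, Ccna2, Aurkb, Foxm1, Cdc25c and Kif20a. A CHR on either strand was present in 22 of the 29 windows (75.9%), against 27.6% of all 32851 RefSeq windows of this length, and a CCAAT box in 24 (82.8%, against 37.4%). The pair of a CHR with at least 2 CCAAT boxes stood in 13 windows (44.8%, against 3.13%). Such a match is a run of letters and not a mapped binding site.

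**Figure D1:**
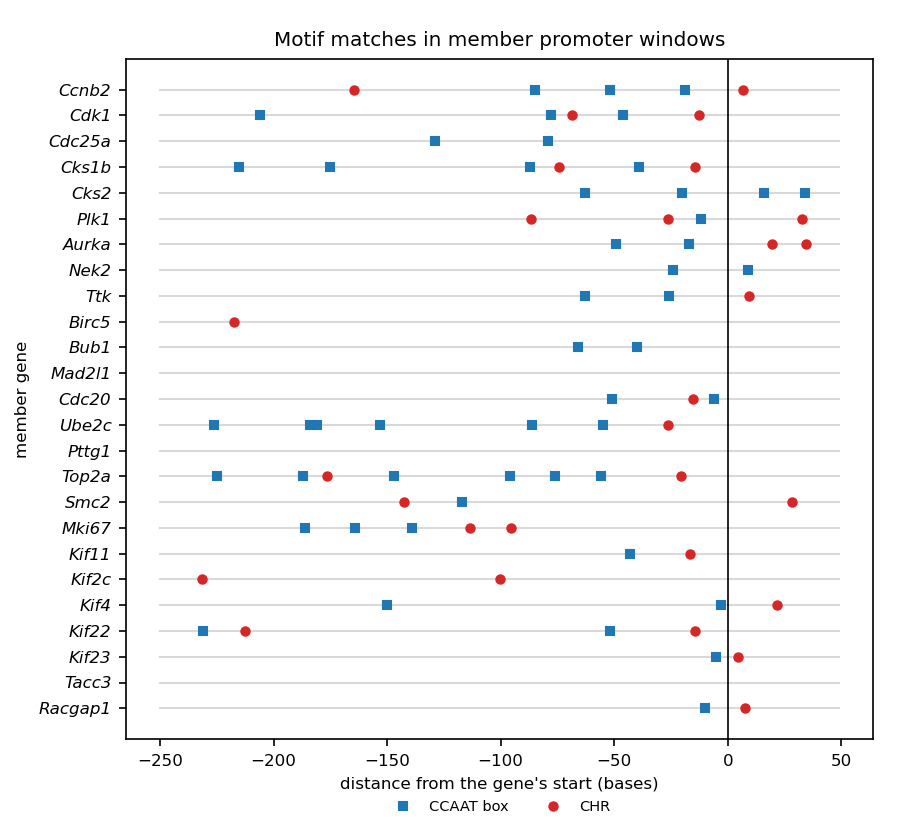
Positions of CHR matches (red circles) and CCAAT boxes (blue squares) in the promoter windows of the 25 members with 1 window, as distance in bases from the gene's start. Of the matches, 21 of 29 CHR and 33 of 50 CCAAT boxes begin no further than 100 bases before the start, and Pttg1, Mad2l1 and Tacc3 have none.

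The deposited signals are linear array intensities. Median signals ranged from 34.1 to 39.5 intensity units over the arrays. Background was read as the highest of 19 bacterial and yeast control probe sets, which ran from 9.1 to 17.2. The targeted gene H1f2 measured 70.0 and 68.2 on the wild-type arrays, 11.1 and 11.5 in line 1 and 13 and 14.4 in line 2, and so fell to near background in both null lines (log2 change -2.27, limma adjusted p = 0.00119). H1f3 and H1f4 were at background on every array and check nothing. Of the embryonic stem cell markers, 12 of 12 were above background on all arrays, from Esrrb at 26.2 to 55.1 to Pou5f1 at 1498 to 1787. So were 8 of 10 extraembryonic endoderm and 5 of 12 feeder fibroblast markers, so this count alone does not single out the labelled cell type.

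No member passed the threshold in any comparison, but most measured somewhat more in the null cells. Each gene is represented by its brightest probe set, and values were tested as log2(signal + 2.4), which understates the change of dim genes. Cenpe, the kinesin that links kinetochores to microtubules, was left out as too dim (10.9 and 7.7 in wild type, 9.9 and 10.5 in line 1, 8.9 and 13.3 in line 2). The other 34 members were above background on all 6 arrays. In the average of the null lines against wild type, 0 of the 34 passed a limma adjusted p of 0.05, where 0.336% of the 5654 genes tested did. An unadjusted p under 0.05 was found for 2 members, Pttg1 and Top2a (against 13.1% of all genes). The log2 change was positive for 29 members and negative for 5, while 48.4% of all genes had a positive change. Its median was 0.16 over members and -0.01 over all genes. All 4 null arrays lay above both wild-type arrays for 12 members (against 11.7% of all genes), and below both for 2 (against 12.3%). The 12 were Ccna2, Ccnb2, Cdk1, Aurka, Birc5, Bub1, Pttg1, Top2a, Kif11, Kif4, Kif22 and Kif23, and the 2 were Incenp and Tacc3. The standard error of a member's change had a median of 0.12, and 1 member, Pttg1, had a change of 0.5 or more.

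**Figure D2:**
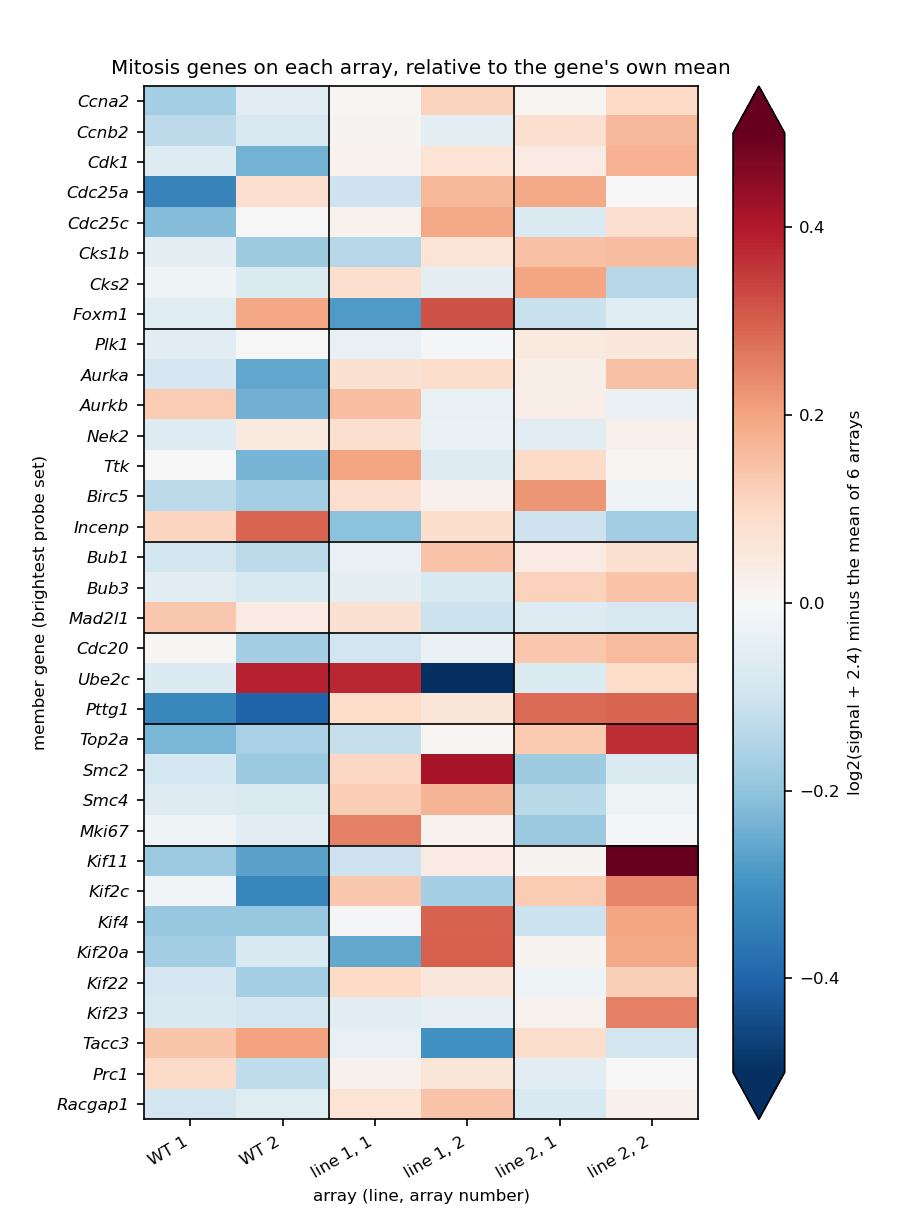
Signal of the 34 tested members on each of the 6 arrays, as log2(signal + 2.4) minus the gene's mean over the arrays (red above, blue below; black lines separate cell lines and role groups). The wild-type columns are mostly blue, with 6 and 8 of 34 members above their own mean, whereas the null columns have 20 to 23 above it. Of all genes tested, 48.5% to 53.8% were above their own mean on each array.

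Array by array, the same shift showed as members low in wild type and slightly high in the null lines. The members' median deviation from their own mean was -0.07 and -0.09 in wild type, 0.02 and 0.05 in line 1, and 0.02 and 0.08 in line 2. The within-line SD of that median was 0.028, which compares arrays of the same line and does not measure the spread between lines. With a single wild-type line, genotype and line cannot be told apart. By number, 6 and 8 members were above their own mean in wild type, 20 and 21 in line 1, and 21 and 23 in line 2. Of all genes tested, 49.3% and 53.8% were above their own mean in wild type and 48.5% to 51.8% on the null arrays. With arrays of experiment 1 alone, the median null change was 0.09 with 28 of 34 positive, and with arrays of experiment 2 alone it was 0.17 with 26 positive. That split was chosen after seeing the data, and its shares over all genes were not computed. Since the members share each array, they are not independent replicates of the condition.

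**Figure D3:**
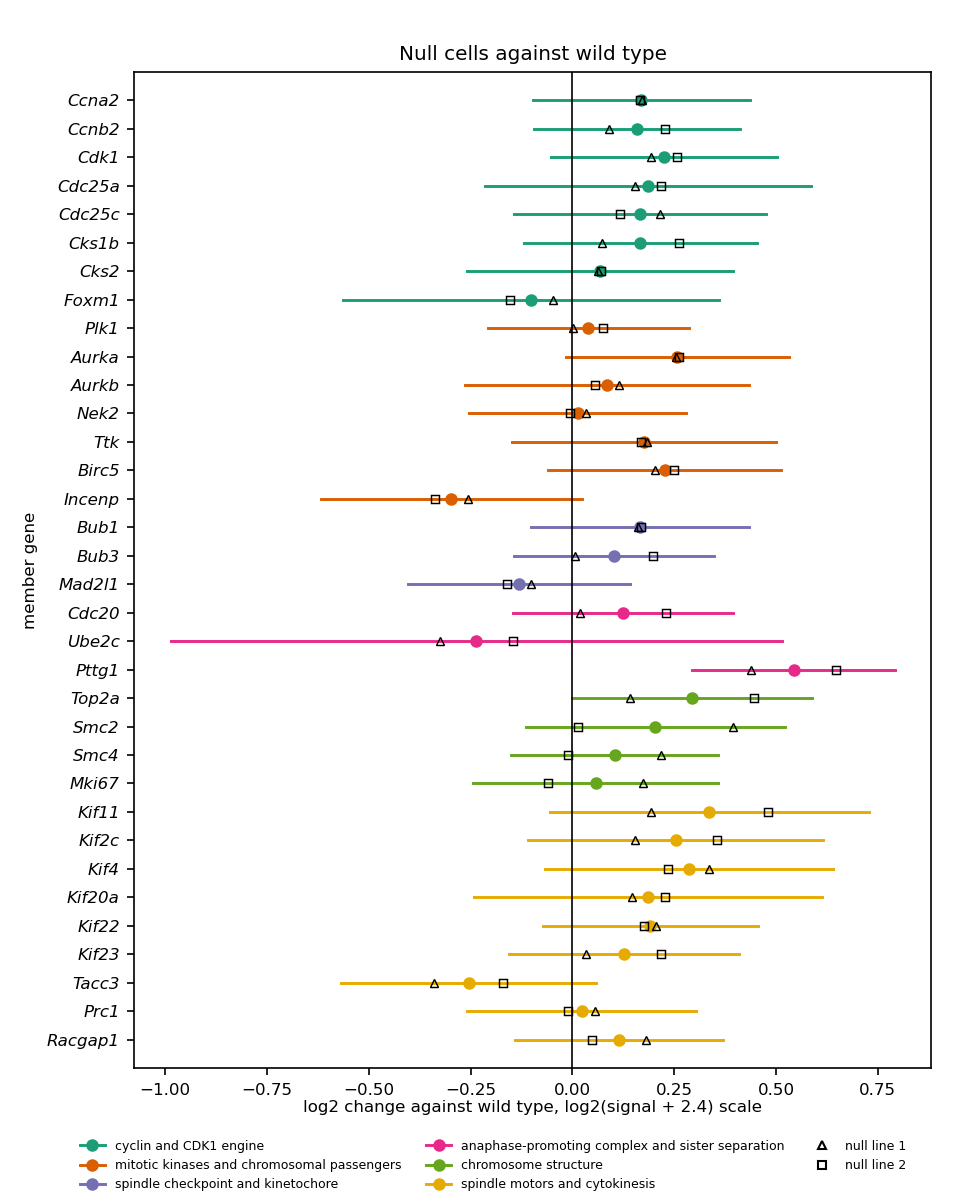
Log2 change of each tested member against wild type on the log2(signal + 2.4) scale: filled circles are the average of the null lines with its 95% limma interval, triangles null line 1, squares null line 2, colours the role group. Most circles lie right of 0, and only the intervals of Pttg1 and Top2a do not reach below it.

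In the cyclin and Cdk1 engine, 7 of 8 members tested had a positive change (median 0.17) and none passed the test. Cdk1, the kinase that drives mitotic entry, measured 589 and 522 in wild type, 624 and 645 in line 1 and 634 and 694 in line 2. Its log2 change was 0.23 ± 0.11 (SE, limma adjusted p = 0.473). All 4 null arrays were above both wild-type arrays, although the wild-type arrays were further apart than the higher of them was from the lowest null array. Ccnb2, a B-type cyclin that activates Cdk1, measured 845 and 878 in wild type, 934 and 898 in line 1 and 980 and 1038 in line 2 (0.16 ± 0.10, adjusted p = 0.583). Ccna2, the cyclin of S phase and early mitosis, measured 346 and 374 against 390.0, 420.0, 391 and 417 (0.17 ± 0.11, adjusted p = 0.578). For both cyclins the groups did not overlap. Cks1b, a small subunit that binds Cdk1, overlapped: 899 and 820 in wild type, 840 and 972 in line 1, and 1026 and 1033 in line 2, where both arrays were higher than in any other line (0.17 ± 0.12, adjusted p = 0.606). The phosphatases that activate Cdk1, Cdc25a and Cdc25c, had changes of 0.19 and 0.17, and Cks2 0.07. Cdc25c measured 123 and 143 in wild type, 145 and 164 in line 1 and 136 and 152 in line 2, so that line 2 fell within the range of the other lines. A second Cdc25c probe set gave 0.03, and the second of Cdc25a was at background. Foxm1, a transcription factor of late cell cycle genes, was the exception in sign, at -0.10 (-0.26 by its other probe set), with line 1 arrays as far apart as 209 and 319.

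Of the mitotic kinases and chromosomal passengers, 6 of 7 had a positive change (median 0.09), none past the test. Aurka, the kinase of centrosomes and spindle poles, measured 281 and 248 in wild type. It was at 313 and 317 in line 1 and at 305 and 329 in line 2. All 4 null arrays were above both wild-type arrays, and the null lines overlapped each other. The change was 0.26 ± 0.11 (SE, 1.2-fold, limma adjusted p = 0.421), at 0.25 in line 1 and 0.26 in line 2. Birc5 (survivin), a passenger that helps place Aurora B at the centromere, measured 249 and 242 in wild type, 289 and 277 in line 1 and 318 and 269 in line 2 (0.23 ± 0.12, adjusted p = 0.482), again without overlap. Its partner Incenp, the scaffold of the passenger complex, lay on the other side. Incenp measured 156 and 177 in wild type, 125 and 154 in line 1 and 134 and 128 in line 2, with every null array lower than both wild-type arrays (-0.30 ± 0.13, adjusted p = 0.424). The dimmer Incenp probe set gave -0.03 ± 0.12, so the probe sets differ in size. Aurkb itself, the kinase of that complex, had a change of 0.09 ± 0.14. Ttk (Mps1), a checkpoint kinase, measured 130 and 111 in wild type, 150 and 125 in line 1 and 140 and 131 in line 2, which overlap (0.18 ± 0.13, adjusted p = 0.629). Plk1, the polo-like kinase of mitotic entry and cytokinesis, measured 514 and 534 in wild type, 520 and 529 in line 1 and 551 and 553 in line 2. Its 3 probe sets gave 0.04, 0.11 and 0.06 in the null average, but they ordered the null lines differently. Nek2, a centrosome kinase, had a change of 0.01.

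In the spindle checkpoint group, which holds back anaphase until chromosomes are attached, 3 members were tested and none passed. Bub1, a kinetochore kinase, measured 230 and 223 in wild type, 238 and 270.0 in line 1 and 251 and 258 in line 2. The wild-type and null arrays did not overlap (0.17 ± 0.11, SE, limma adjusted p = 0.587), and its other probe sets gave 0.15 and 0.23. Bub3, which binds Bub1, measured 673 and 662 in wild type, 677 and 664 in line 1, and 759 and 772 in line 2. Thus line 1 was at the wild-type level and line 2 above both (0.01 in line 1, 0.20 in line 2, each ± 0.12). Mad2l1, which inhibits Cdc20 at unattached kinetochores, measured 606 and 568 in wild type, 582 and 513 in line 1 and 527 and 522 in line 2. Here the null arrays were mostly lower, with 1 line 1 array inside the wild-type range (-0.13 ± 0.11, adjusted p = 0.666).

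Pttg1 (securin), the inhibitor that holds separase inactive until anaphase, had the largest change and the smallest p-value of the 34 members. Its signal was 244 and 231 in wild type, 326 and 319 in null line 1, and 372 and 374 in null line 2. The 3 lines were fully separated in that order, and arrays of a line differed by far less than the lines did. The change of the null average was 0.54 ± 0.10 (SE, 95% interval 0.29 to 0.79, 1.46-fold), with an unadjusted p of 0.00166 and a limma adjusted p of 0.130 over the 7453 probe sets tested. Line 1 gave 0.44 ± 0.12 (adjusted p = 0.332) and line 2 gave 0.65 ± 0.12 (adjusted p = 0.119). When the prior for the spread was allowed to follow the signal, Pttg1 passed in the null average (adjusted p = 0.0317) and was the single member to do so. Over the alternatives as a whole its adjusted p ran from that value to 0.567, the highest being without the second wild-type array. By the suffix in the array maker's naming, the Pttg1 probe set used can match more than 1 transcript, and the other one was at background on every array. The Cdc25c probe set used has the same suffix. Those used for Kif20a, Kif22, Ube2c, Plk1 and Foxm1 also have a suffix other than the plain one.

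The other tested members of sister separation did not follow Pttg1 in size. Cdc20, the activator of the anaphase-promoting complex, measured 1255 and 1108 in wild type, 1169.7 and 1221 in line 1 and 1372 and 1393 in line 2. Line 1 lay inside the wild-type range and line 2 above it (null average 0.12 ± 0.11, SE, limma adjusted p = 0.682). Ube2c, the ubiquitin-conjugating enzyme of the complex, measured 53.2 and 73.8 in wild type, 73.3 and 33.2 in line 1 and 53.3 and 59.8 in line 2. Its arrays spread so widely that the change of -0.24 ± 0.31 has an interval from -0.99 to 0.52, and its sign turned (0.04) without the second line 1 array.

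**Figure D4:**
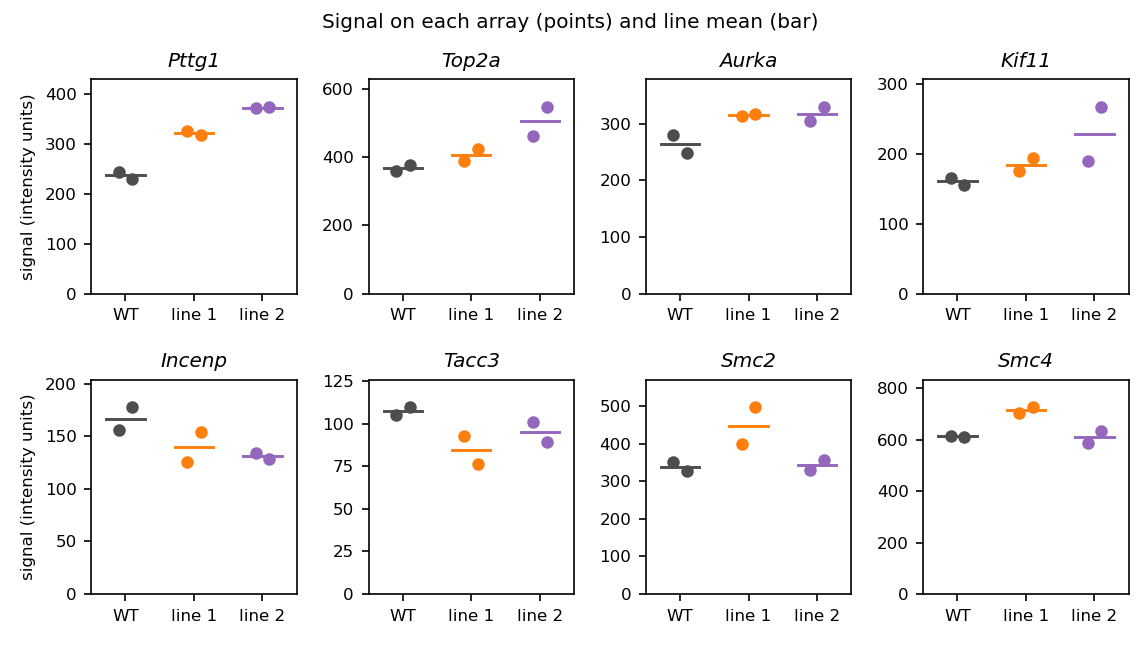
Signal in intensity units on each array (points) and the mean of each line (bars) for 8 members, by wild type (WT), null line 1 and null line 2. Pttg1 separates the 3 lines, Top2a and Kif11 have line 2 arrays that differ from each other, Incenp and Tacc3 are lower on the null arrays, and Smc2 and Smc4 are high in line 1 alone.

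The 4 chromosome structure genes all had a positive null average, none past the test, and were ordered differently in the null lines. Top2a, the topoisomerase that untangles sister chromatids, measured 360 and 377 in wild type, 389 and 425 in line 1 and 463 and 546 in line 2. All null arrays were above wild type and line 2 above line 1 (null average 0.29 ± 0.12, SE, limma adjusted p = 0.392). Its unadjusted p was just under the threshold. Smc2, a core subunit of both condensins, measured 351 and 328 in wild type, 401 and 497 in line 1 and 330 and 356 in line 2. Its partner Smc4 was at 614 and 612 in wild type, 702 and 725 in line 1 and 586 and 632 in line 2. For this pair line 1 stood above the other lines, and line 2 overlapped wild type. The changes of line 1 were 0.39 ± 0.15 (adjusted p = 0.495) for Smc2 and 0.22 ± 0.12 (adjusted p = 0.611) for Smc4, beside 0.01 and -0.01 in line 2. Mki67, the Ki-67 protein that coats mitotic chromosomes, measured 249 and 244 in wild type, 302 and 256 in line 1 and 222 and 251 in line 2. Its null average was 0.06, which became -0.15 with the mean of its probe sets, since the dimmer of them gave -0.36 ± 0.22.

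Among the spindle motors and cytokinesis genes, 8 of 9 had a positive change (median 0.19) and none passed. Kif11 (Eg5), the motor that pushes spindle poles apart, measured 166 and 156 in wild type, 175 and 194 in line 1 and 190.0 and 267 in line 2. The groups did not overlap, but 1 line 2 array stood far above the rest (0.34 ± 0.16, SE, limma adjusted p = 0.449). Kif4, a chromosome-arm motor, measured 92.1 and 92.2 in wild type against 105, 130, 97.7 and 121 on the null arrays (0.29 ± 0.15, adjusted p = 0.475). Kif22, which pushes chromosome arms away from the poles, measured 580.0 and 547 against 660, 640.2, 607 and 668 (0.19 ± 0.11, adjusted p = 0.516). In both, every null array was higher than both wild-type arrays and the null lines overlapped. Tacc3, which stabilises spindle microtubules, went the other way: 105 and 109.5 in wild type, 92.6 and 76.5 in line 1 and 101.2 and 89.1 in line 2, all null arrays lower (-0.26 ± 0.13, adjusted p = 0.470). Kif2c, a microtubule-depolymerising kinesin of centromeres, overlapped, at 298 and 239 in wild type, 329 and 267 in line 1 and 328 and 356 in line 2 (0.25 ± 0.15). Kif23, the motor of the central spindle, measured 243 and 240.1 in wild type, 246 and 248 in line 1 and 259 and 305 in line 2, with the lines in that order and nearly no gap between the first pair. Its partner Racgap1 had 0.11 and Kif20a, a motor of the cleavage furrow, 0.19. The dimmer Kif20a probe set gave 0.14 ± 0.13 in the null average, with -0.05 in line 1 and 0.33 in line 2. Prc1, which bundles central spindle microtubules, had 0.02.

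Each null line was also set against wild type; both comparisons use the same wild-type arrays. In line 1, 0 members passed (against 0.106% of all genes) and 2, Pttg1 and Smc2, had an unadjusted p under 0.05 (against 9.62%). The change was positive for 29 of 34 (against 48.9%) with a median of 0.15. Both line 1 arrays lay above both wild-type arrays for 17 members (against 20.2%) and below for 2 (against 20.7%). In line 2, 0 passed (against 0.265%) and 3 had an unadjusted p under 0.05, namely Pttg1, Top2a and Kif11 (against 14.3%). The change was positive for 25 (against 49.0%) with a median of 0.17, and both arrays lay above wild type for 19 members (against 24.1%) and below for 4 (against 25.7%).

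Between the null lines, the members did not shift to one side. The median of line 1 minus line 2 was -0.01, 0 members passed the limma threshold, where 0 of all genes tested did (0%), and 1 member, Smc2, had an unadjusted p under 0.05 (against 7.32% of genes). The dimmer Kif20a probe set also had an unadjusted p under 0.05 (-0.37 ± 0.15, limma adjusted p = 0.628), whereas the brighter one gave -0.08 ± 0.20. Line 1 was above line 2 on both arrays for 5 members (against 19.3%) and below for 8 (against 19.9%). The 5 were Smc2 (0.38 ± 0.15, adjusted p = 0.628), Smc4 (0.23 ± 0.12), Mki67, Prc1 and Racgap1. Among the 8 were Top2a (-0.30 ± 0.14, adjusted p = 0.634), Pttg1 (-0.21 ± 0.12, adjusted p = 0.670), Cdc20 (-0.21 ± 0.13), Bub3 (-0.19 ± 0.12) and Cks1b (-0.19 ± 0.14), with Ccnb2, Plk1 and Kif23. For Plk1 (-0.07 ± 0.12) the probe sets disagreed. A dimmer one had line 1 above line 2 (281 and 288 against 249 and 266, 0.14 ± 0.13), and the remaining one overlapped.

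A wider list of 83 other mitosis genes was set beside the members, without a test between the lists. Of its 51 genes with a probe set, 49 were tested and none passed with limma in the null average. An unadjusted p under 0.05 was found for 2 (against 13.1% of all genes), the change was positive for 30 of 49 (against 48.4%), and the median was 0.05. All null arrays lay above wild type for 8 (against 11.7%) and below for 2, Smc3 and Nek6 (against 12.3%). Nusap1, which bundles spindle microtubules, measured 322 and 249 in wild type, 389 and 436 in line 1 and 328 and 323 in line 2 (0.37 ± 0.14, SE, adjusted p = 0.365). The subunits Anapc5 and Anapc1 of the anaphase-promoting complex had 0.29 ± 0.11 and 0.26 ± 0.11, and Rcc1, the exchange factor of Ran, 0.25 ± 0.11. Nek6, a mitotic kinase, had -0.26 ± 0.12, and Cdkn3, a phosphatase of cyclin-dependent kinases, -0.62 ± 0.28 with overlapping arrays. By subgroup, the change was positive for 6 of 9 genes of the anaphase-promoting complex, 5 of 7 of cohesin and its regulators, 1 of 2 of condensin, 4 of 5 of centromere, kinetochore and checkpoint, 11 of 17 of spindle, centrosome and cytokinesis, and 3 of 9 of mitotic entry and its regulation.

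**Figure D5:**
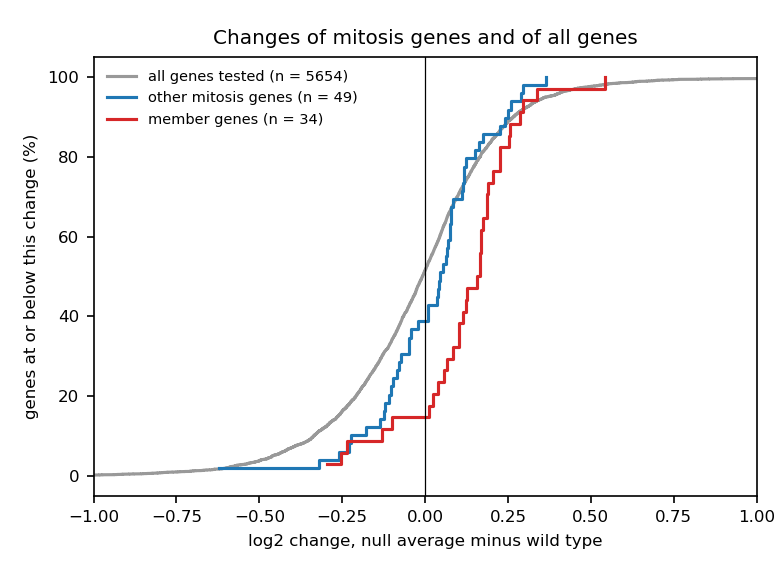
Share of genes (%) at or below each log2 change of the null average against wild type, for the 34 members (red), the 49 other mitosis genes (blue) and all 5654 genes tested (grey), drawn from -1 to 1, with the few genes beyond left out of view. The members' curve lies to the right of the grey curve over most of its length, with a median of 0.16 against -0.01, and the blue curve runs between them around 0.

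The promoter letters were also set beside the changes. The 12 members with a CHR and at least 2 CCAAT boxes had a median null change of 0.17, and the 15 with a window but without that pair 0.13. Among tested genes that are no members, the 157 with the pair had a median of 0.03 and a positive change in 56.1%, and the 4394 without it -0.01 and 48.2%. All null arrays lay above wild type for 17.2% of the former and 11.7% of the latter. The other mitosis genes held the pair in 12 of 43 windows (27.9%) and were counted among these genes that are no members.

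Most marker sums differed with the lines. The summed signal of the 12 embryonic stem cell markers was 8221 to 8311 in wild type, 9013 to 9609 in line 1 and 8684 to 8759 in line 2. Of these 12 genes, 8 had a positive null change and 4 a negative one, Nanog (-0.09), Sox2 (-0.04), Klf4 (-0.22) and Tdgf1 (-0.38). The summed signal of 12 feeder fibroblast markers, of which 5 were above background on all arrays, was 1645 to 1731, 1302 to 1328 and 1318 to 1396 in the same order. Acta2 (561 in wild type, 345 in null cells, means) and Sparc (602 and 458) made up most of that difference, whereas Col1a1, Col1a2 and Fbln2 had log2 changes of 0.01, 0.12 and -0.11. The 10 extraembryonic endoderm markers (8 above background on all arrays, Foxa2 at background on all) summed to 1082 to 1146, 751 to 795 and 730 to 770, with a negative change for 6 of the 8 tested. Col4a1 (376 in wild type, 232 in null cells, means) and Col4a2 (349 and 194) made up most of that difference. Gata4, Lamb1 and Dab2 had log2 changes of -0.23, -0.35 and -0.37, and Sox17, Sox7 and Afp 0.05, 0.09 and -0.002. For 6 mesoderm markers, with Mesp1 at background, the sums were 221 to 243, 185 to 198 and 173 to 179. The 5 neuroectoderm markers, with Neurog1 and Zic1 at background, overlapped between lines. The part of these shifts in the members' values was not tested. In bulk RNA, a different share of cycling cells and a different level of RNA per cell cannot be told apart.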

How the data were processed

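Each of the 6 arrays has 1 value per probe set, a linear intensity. The authors made these values with MAS5, per the submitters' processing notes. The MAS5 version was not given in the sources used here. The deposited intensities had been scaled alike: the mean after trimming 2% of probe sets at each end lay between 100.05 and 100.06. Control probe sets (66) were left out. Of 12488 probe sets, 10833 have 1 gene listed, 10817 of them matched to a current symbol; 396 have several and 1193 none.

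The pseudocount (2.4) is the 10th percentile of the values, and the 7453 probe sets with a mean at or above the 40th percentile (20.9) were tested. One mean per line was fitted with limma 3.58.1 in R 4.3.3 (lmFit, eBayes; 3 residual and 3.2 prior degrees of freedom), with p-values adjusted by Benjamini-Hochberg over all probe sets tested. The smallest two-sided p a permutation of 2 against 4 arrays allows is 0.0667. The procedure was tested on simulated data. Per role group, the 4 members with the smallest p in the null average and the 3 between null lines were to be named with all their values, and the rest by range, plus 6 other mitosis genes; further members are named after their values were seen. Members and lists were chosen with earlier results of these data known. The number of arrays limits the precision. Figures used matplotlib 3.10.9.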

Additional observations from a re-analysis of the deposited data

How the results depend on the processing

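Of the alternatives, a prior spread that follows the signal was the only one under which a member passed: Pttg1 alone (1 member) in the null average, and 1 member in line 2. The number of members with a positive null change, 29, ranged from 27 to 30 over all alternatives, a measure added after seeing the data. The median null change, 0.16, lay between 0.11 and 0.16 when 1 array at a time was left out. Likewise it lay between 0.11 and 0.17 for line 1, 0.11 and 0.18 for line 2, and -0.050 and 0.0048 for line 1 minus line 2. With the mean of a gene's probe sets the line 1 median was 0.10. The signs of 2 named members turned. Mki67 was -0.15 with the mean of its probe sets and ranged from -0.00124 to 0.12 without 1 array; Ube2c ranged from -0.51 to 0.036. The cause was not tested. Of all probe sets, 34 passed in the null average, 54 with a pseudocount of 16, 8 with no filter and 101 with the spread that follows the signal, and 7 to 13 without 1 array. With the experiment number as a replicate block 14 passed, and Pttg1 had an adjusted p of 0.204. The numbers were not treated as pairing the arrays, since the differences between experiments correlated between lines with r of 0.05, 0.10 and 0.07.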

Other observations

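Lmnb1, which encodes lamin B1 of the nuclear envelope that is taken apart in mitosis, differed between experiments more than between lines; it was singled out after its values were seen. It measured 607 and 198 in wild type, 531 and 245 in null line 1 and 541 and 140.3 in null line 2, with the array of experiment 1 high and that of experiment 2 low in all 3 lines. Its null change was -0.14 ± 0.68 (SE, limma adjusted p = 0.961). Among the 34 tested members, the median difference of experiment 2 minus experiment 1 was -0.03 in wild type, 0.03 in line 1 and 0.08 in line 2. The difference was positive for 14 members in wild type, 20 in line 1 and 26 in line 2. Of the 5654 genes tested, it was positive for 2856, 2746 and 2959 in the same order.

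Of the 12 embryonic stem cell markers tested, 1 passed with limma in the null average: Fbxo15 rose from 170.2 and 156 to between 301 and 375 (adjusted p = 0.0449), while 8 of the 12 had a positive change and 4 a negative one. Of the 8 extraembryonic endoderm markers tested, 1 passed: Col4a2, a basement membrane collagen, fell from 344 and 353 to between 184 and 205 (adjusted p = 0.0424), and 6 of the 8 had a negative change, with Sox17 and Sox7 positive.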
